A study of Mus musculus with 43 samples.

Results

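The transcripts of 41 genes that are targets of the transcription factor NRF2 or enzymes of glutathione metabolism were followed in liver RNA of mice with a human alpha-1-antitrypsin Z transgene and with loss of hepatic insulin signalling. The genes were listed by symbol, and every row with such a symbol was taken: 40 of the 14622 genes of the table with hemizygous transgene mice and 41 of the 13741 genes of the table with homozygous mice. Gstp1 had no row in the hemizygous table. They fall into 3 regulators, 4 genes of glutathione synthesis, 6 of glutathione, thioredoxin and peroxide reduction, 9 oxidoreductases and detoxication enzymes, 11 glutathione transferases, 5 genes of the pentose phosphate pathway and NADPH supply, and 3 exporters.

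All mice were males of 4 to 5 months on a mixed C57BL6/J x FVBN background. PiZ mice carry a transgene of human alpha-1-antitrypsin, a secreted protease inhibitor, in its Z variant, which is retained in the hepatocyte. LIRKO is the usual name of mice without the insulin receptor in hepatocytes, and F1KO marks the further loss of FOXO1, a transcription factor that insulin restrains. The homozygous table (source label IRZZ#2) held 7 ZZ LIRKO mice (PiZ homozygous, LIRKO), 3 ZZ mice (PiZ homozygous), 4 LIRKO mice and 3 wild-type (WT) mice. The hemizygous table held 5 Z LIRKO F1KO mice and 5 mice labelled PiZ (Z*), written Zstar here, both with the source label F1IRZZ. It also held 4 Z LIRKO, 5 Z, 4 LIRKO and 3 WT mice, all with the source label IRZZ. Zstar mice are PiZ mice without LIRKO, and the labels do not explain the asterisk. The 4 LIRKO and 3 WT mice were the same 7 animals in both tables, so the 43 libraries came from 36 mice. The sources used here do not give the transgene promoter, the Cre driver or floxed alleles that a control group may carry. Source label and genotype cannot be told apart when Zstar is set against Z or WT.

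NRF2, encoded by Nfe2l2, is held for degradation in the cytoplasm by KEAP1. When electrophiles or oxidants modify KEAP1, or when the autophagy receptor p62 (Sqstm1) sequesters it, NRF2 enters the nucleus and binds antioxidant response elements together with small MAF proteins. Its targets in liver make glutathione, conjugate it to xenobiotics, regenerate reduced glutathione and thioredoxin, supply NADPH and export conjugates. Several of these genes are also known targets of other liver receptors such as CAR and PXR.

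Levels are log2 CPM (read counts scaled to library size, on a log2 scale), as deposited, and differences between groups are log2 units with the standard error of the limma fit. A gene passed when its limma p, adjusted over all 13690 genes tested in the homozygous or 13596 in the hemizygous table, was under 0.05. Libraries held 38.2 to 90.1 M reads in the homozygous and 13.8 to 23.9 M reads in the hemizygous table, and 3 reads stood at a median of -4.21 and -2.47 log2 CPM in these tables. Every member passed the filter on low values (0 log2 CPM in 3 libraries) in each table that listed it. Gpx2 did so only through the 3 ZZ livers in the homozygous table and only through 3 Z LIRKO F1KO livers in the hemizygous table, and Slc7a11 and Cbr3 in the homozygous table only through ZZ and ZZ LIRKO livers. In the hemizygous table Slc7a11 and Gsta1 did so through Z, Zstar and Z LIRKO F1KO livers. These genes were thus tested because of their levels in groups where some of them are called higher below. The number of members passing in each comparison was the same with no filter. Insr, the targeted receptor gene, averaged 5.70 ± 0.14 log2 CPM in ZZ LIRKO and 6.49 ± 0.14 in ZZ livers (SD, n = 7 and 3). In the hemizygous table Insr averaged 5.20 ± 0.14, 5.84 ± 0.13 and 5.96 ± 0.16 in Z LIRKO F1KO, Z LIRKO and LIRKO livers, against 6.80 ± 0.17, 7.09 ± 0.15 and 7.12 ± 0.10 in Zstar, Z and WT livers (SD, n = 5, 4, 4, 5, 5 and 3). Foxo1 averaged 2.76 ± 0.14 log2 CPM in Z LIRKO F1KO livers, against 5.53 ± 0.21 in Zstar livers (SD, n = 5 each). In bulk RNA, fewer cells of a type and less RNA per cell cannot be told apart. For the 7 mice sequenced in both tables the median member differed by -0.07 to 0.03 log2 units between the tables, but Gsta1 stood 3.31 to 4.93 higher and Gsta2 1.27 to 1.69 higher in the homozygous table in every one of them. Prdx1 was also higher there in each of these mice, by 0.64 to 1.15. Gpx2, Slc7a11 and Abcc4 differed by over 1 log2 unit in 4, 3 and 1 of the 7 mice. Gsta1 and Gsta2, the Gstm genes and Gstp1 have near-identical relatives, so how reads were divided among them is uncertain and their levels are compared only within a table.

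**Figure D1:**
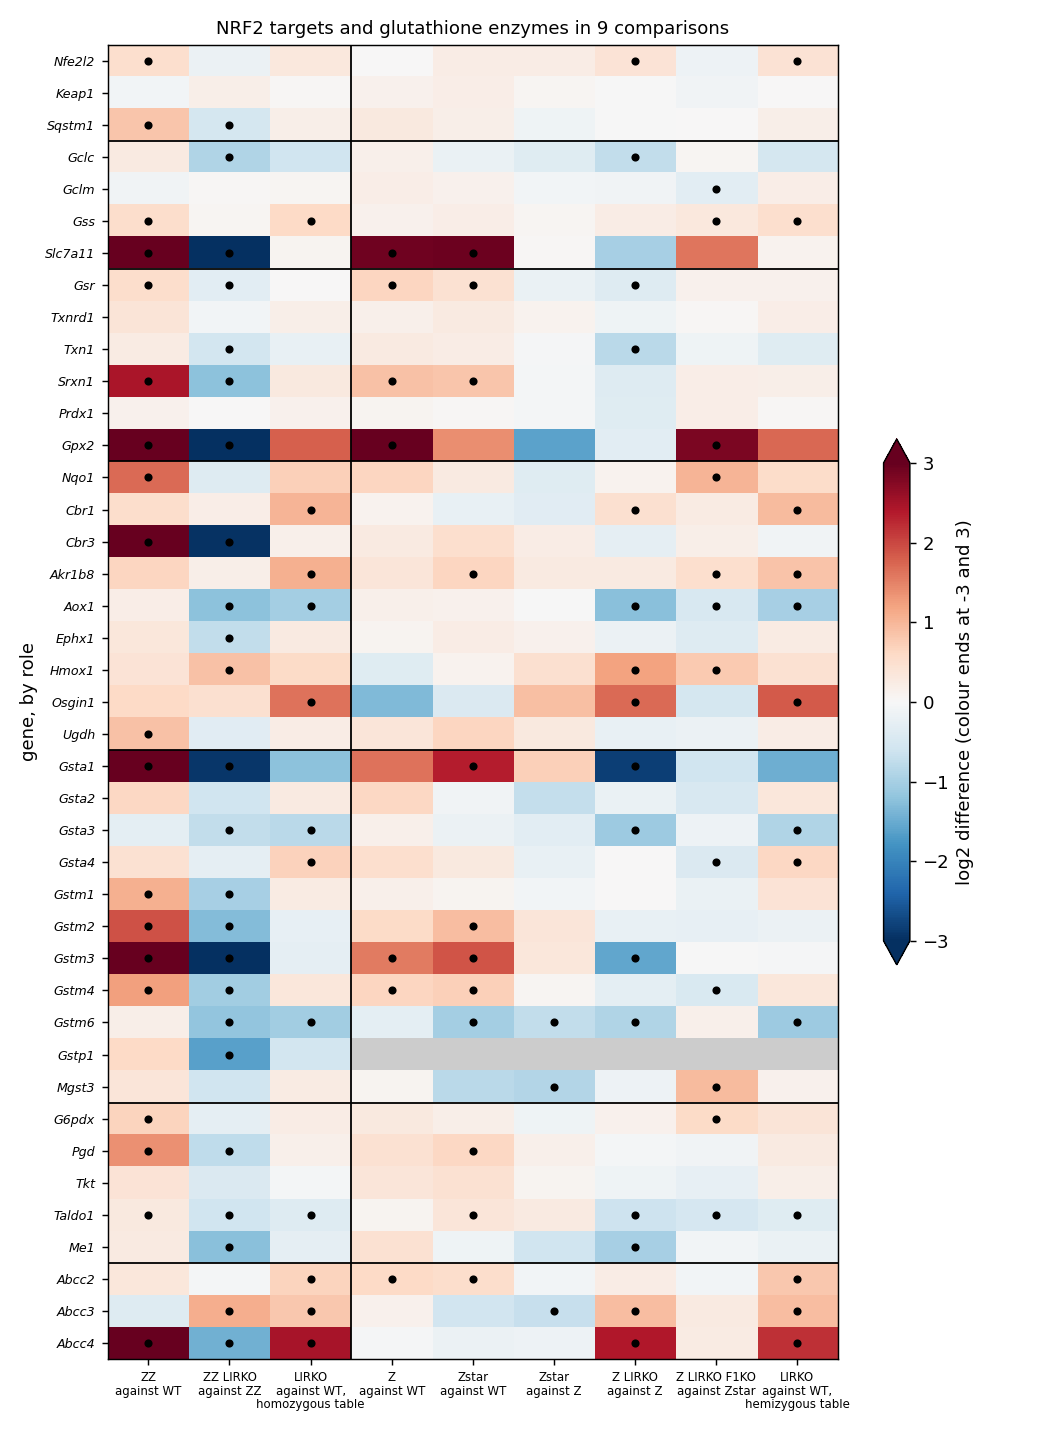
Log2 difference between groups for each gene (rows, by role, separated by lines) in 9 comparisons (columns, homozygous table left of the vertical line). Red is higher and blue lower in the group named first, black points mark an adjusted p under 0.05 (limma), and grey marks Gstp1, absent from the hemizygous table. In ZZ against WT all 19 points lie on red, and in ZZ LIRKO against ZZ 22 of 24 lie on blue.

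The promoters of the members, 250 bases before to 50 after each RefSeq transcript start on GRCm38.p6, were searched for the antioxidant response element core TGACNNNGC on both strands, the only motif searched. RefSeq windows were at hand for 36 of the 41 genes (not for Gclc, Gsr, Hmox1, Gsta4 and Abcc3), and 12 of these 36 (33.3%) held the core, against 3781 of 27025 genes (14%) over all promoters. The core is shown in capitals in 4 of the members that were higher in ZZ than in WT livers (Abcc4, G6pdx, Ugdh and Nfe2l2) and in 2 that did not pass there (Gclm and Prdx1). Each line reads 5′ to 3′ on the gene's own strand. GC at the start of the capitals marks a core on the opposite strand.
Abcc4, chr14:118676932-118676984, minus strand, core from position -23: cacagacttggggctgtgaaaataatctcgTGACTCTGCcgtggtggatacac
Abcc4, other start, chr14:118706220-118706274, minus strand, core from -25: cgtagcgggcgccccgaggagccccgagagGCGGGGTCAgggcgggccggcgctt
G6pdx, chrX:74428899-74428967, minus strand, core from -57: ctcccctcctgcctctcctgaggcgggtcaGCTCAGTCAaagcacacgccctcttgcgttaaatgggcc
Ugdh, chr5:65435936-65436004, minus strand, core from -132: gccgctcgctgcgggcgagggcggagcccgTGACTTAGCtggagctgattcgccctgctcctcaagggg
Nfe2l2, chr2:75704865-75704913, minus strand, core from -240: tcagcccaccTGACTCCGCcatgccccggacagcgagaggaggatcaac
Gclm, chr3:122245393-122245461, plus strand, core from -134: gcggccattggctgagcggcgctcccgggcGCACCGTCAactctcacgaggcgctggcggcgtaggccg
Prdx1, chr4:116685436-116685504, plus strand, core from -133: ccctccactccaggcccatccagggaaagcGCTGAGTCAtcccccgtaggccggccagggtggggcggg
Position -1 is the base just before the transcript start. Of the 12 members with the core 6 were higher in ZZ than in WT livers, and of the 24 without it 12 were. Of the genes with the largest differences described next, Slc7a11, Gpx2, Cbr3, Gstm3 and Gsta1 had no core in this window. Abcc4, also among them, held the core at both starts shown above.

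In ZZ livers, set against WT livers for the effect of the homozygous transgene, 19 of 41 members were higher, where 16.1% of all genes tested were higher, and 0 members were lower, where 14.2% of all genes were. At an unadjusted p under 0.05 the counts were 21 higher and 0 lower. The median difference of the members was 0.54, against -0.04 over all genes tested. The cystine importer gene Slc7a11, the peroxidase gene Gpx2, the carbonyl reductase gene Cbr3, the transferase genes Gstm3 and Gsta1 and the exporter gene Abcc4 differed most, by 3.80 to 9.40 log2 units.

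Of the 3 regulators 2 rose. Sqstm1, which encodes p62, averaged 9.88 ± 0.23 log2 CPM in ZZ and 9.04 ± 0.10 in WT livers (SD, n = 3 each), a difference of 0.84 ± 0.14 log2 units (SE, adjusted p = 0.00034). Nfe2l2 had 6.47, 6.04 and 6.42 log2 CPM in ZZ livers, against 5.75, 5.67 and 6.01 in WT livers, a difference of 0.50 ± 0.15 log2 units (SE, adjusted p = 0.016). All ZZ mice lay above all WT mice for both genes, though ZZ mouse 1809, at 6.04, was close to the highest WT mouse. Keap1 had 5.84, 5.93 and 5.92 in ZZ and 5.91, 6.07 and 5.95 in WT livers, values that overlapped (-0.08 ± 0.09, adjusted p = 0.532).

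Among the 4 glutathione synthesis genes, Slc7a11 and Gss rose. Slc7a11 (chromosome 3, 49892526 to 50443614, minus strand, GRCm38), the subunit of the cystine importer that supplies cysteine, had 5.89, 5.29 and 4.76 log2 CPM in ZZ livers, against -4.11, -4.14 and -4.00 in WT livers. In reads these were 3582, 2702 and 1310 in ZZ livers and 2, 2 and 4 in WT livers. The difference was 9.40 ± 0.60 log2 units (SE, adjusted p = 4.05e-08), and the ratio of summed reads, scaled to library size, was 1027 (95% exact interval 521 to 2381, counting error only). The WT level is thus at about the value of 3 reads, while every ZZ mouse was far above it. Gss, glutathione synthetase, averaged 6.38 ± 0.06 in ZZ and 5.85 ± 0.28 in WT livers (0.54 ± 0.18, adjusted p = 0.0353, SD with n = 3 each). Neither subunit of glutamate-cysteine ligase, the rate-limiting enzyme, passed. The catalytic subunit gene Gclc had 8.87, 8.75 and 8.92 in ZZ and 8.48, 8.55 and 8.69 in WT livers (0.27 ± 0.30, adjusted p = 0.525). For the modifier subunit gene Gclm the values were 7.84, 7.44 and 7.88 in ZZ and 7.83, 7.84 and 7.81 in WT livers (-0.11 ± 0.12, adjusted p = 0.55). Gclm spread across the WT values, and the Gclc groups did not overlap but their difference did not pass.

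Of the 6 reduction genes 3 rose. Sulfiredoxin, encoded by Srxn1 and known to repair overoxidised peroxiredoxins, had 7.96, 7.81 and 7.55 log2 CPM in ZZ livers and 5.03, 5.49 and 5.43 in WT livers, a difference of 2.46 ± 0.17 log2 units (SE, adjusted p = 1.41e-07). The glutathione peroxidase gene Gpx2, known mainly from the gut epithelium, had 3.95, 3.21 and 1.22 log2 CPM in ZZ livers, against -6.43, -3.65 and -3.47 in WT livers (7.31 ± 0.77 log2 units (SE, adjusted p = 6.36e-06)). Its reads were 934, 638 and 112 in ZZ livers and 0, 3 and 6 in WT livers, a size-scaled ratio of 202 (95% exact interval 106 to 444). That ratio was 332 without WT mouse 1601 and 133 without ZZ mouse 1682. ZZ and WT mice were separate for both genes, and Gpx2 varied more than Srxn1 within each group. Gsr, glutathione reductase, averaged 7.23 ± 0.09 in ZZ and 6.69 ± 0.12 in WT livers (0.54 ± 0.13, adjusted p = 0.00496, SD with n = 3 each). The thioredoxin system genes Txnrd1 (0.39 ± 0.19, adjusted p = 0.137) and Txn1 (0.26 ± 0.15, adjusted p = 0.213) and the peroxiredoxin gene Prdx1 (0.12 ± 0.12, adjusted p = 0.469) did not pass.

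Of the 9 oxidoreductases and detoxication enzymes, Cbr3, Nqo1 and Ugdh rose. Cbr3 (chromosome 16, 93683215 to 93690990, plus strand), a carbonyl reductase, had 3.82, 4.55 and 3.77 log2 CPM in ZZ livers and -0.32, -0.53 and -0.03 in WT livers, a difference of 4.34 ± 0.26 log2 units (SE, adjusted p = 2.58e-08). The quinone reductase gene Nqo1, a commonly used NRF2 readout, had 4.41, 4.78 and 4.03 in ZZ livers and 2.33, 2.71 and 3.10 in WT livers (1.69 ± 0.37 log2 units (SE, adjusted p = 0.00263)). No ZZ mouse reached down to the WT values of Cbr3 or Nqo1. Ugdh, which makes UDP-glucuronate for conjugation, differed by 0.87 ± 0.26 log2 units (SE, adjusted p = 0.0177). Hmox1, the inducible heme oxygenase, had 4.92, 4.5 and 4.77 in ZZ and 4.79, 4.26 and 3.88 in WT livers, and these overlapped (0.42 ± 0.28, adjusted p = 0.271). Cbr1, the neighbour of Cbr3 on chromosome 16 and also a carbonyl reductase, did not pass (0.52 ± 0.22, adjusted p = 0.0862).

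Of 11 glutathione transferase genes 5 rose, 4 of them in the Gstm cluster on chromosome 3. Gstm3 (107963696 to 107969283, minus strand) had 10.46, 10.58 and 9.80 log2 CPM in ZZ livers and 6.48, 5.88 and 5.58 in WT livers, a difference of 4.30 ± 0.41 log2 units (SE, adjusted p = 3.05e-06). Its neighbours Gstm2 (1.90 ± 0.26, adjusted p = 5.97e-05), Gstm4 (1.22 ± 0.26, adjusted p = 0.00215) and Gstm1 (1.06 ± 0.25, adjusted p = 0.00428) were higher by less, and Gstm6, at the end of the cluster, did not pass (0.18 ± 0.25, adjusted p = 0.633). All 3 ZZ livers lay above all 3 WT livers for these 4 genes that passed. Gsta1 rose by 3.80 ± 0.69 log2 units (SE, adjusted p = 0.000691), averaging 6.15 ± 0.60 in ZZ and 2.35 ± 0.77 in WT livers (SD, n = 3 each), with the uncertainty from Gsta2 given above. Gsta2, Gsta3, Gsta4, Gstp1 and the microsomal Mgst3 did not pass. Gstp1 averaged 9.77 ± 0.31 in ZZ and 9.17 ± 1.12 in WT livers (SD, n = 3 each), where WT mouse 1564, at 10.46, stood far from the others at 8.52 and 8.53.

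In the pentose phosphate pathway, which regenerates NADPH, the 2 NADPH-forming dehydrogenases rose. Pgd averaged 6.43 ± 0.17 in ZZ and 5.06 ± 0.13 in WT livers (1.36 ± 0.19, adjusted p = 6.53e-05), and G6pdx averaged 3.11 ± 0.44 in ZZ and 2.44 ± 0.18 in WT livers (0.67 ± 0.19, adjusted p = 0.016, SD with n = 3 each). Taldo1, transaldolase, was higher by 0.30 ± 0.10 log2 units (SE, adjusted p = 0.032). Tkt, transketolase, and Me1, malic enzyme, did not pass (0.42 and 0.27). Among exporters, Abcc4 (chromosome 14, 118482692 to 118706219, minus strand), a basolateral exporter of conjugates and bile acids, had 6.37, 5.96 and 5.47 in ZZ livers and 1.23, 1.84 and 1.26 in WT livers, a difference of 4.49 ± 0.33 log2 units (SE, adjusted p = 1.87e-07). The canalicular exporter Abcc2 (0.34 ± 0.20, adjusted p = 0.205) and the basolateral Abcc3 (-0.38 ± 0.19, adjusted p = 0.138) did not pass. Of 88 other genes of the pathway tested, 20 were higher (16.1% of all genes) and 12 lower (14.2% of all genes) in ZZ livers. The share of lower ones is near that of all genes and is not a result about the pathway. Ggt1, which breaks down extracellular glutathione (7.29 ± 0.76 log2 units (SE, adjusted p = 5.7e-06)), was among the higher. Slc3a2, the partner chain of the cystine importer (1.53 ± 0.19 log2 units (SE, adjusted p = 2.47e-05)), and Mafk, a small MAF partner of NRF2 (1.04 ± 0.14 log2 units (SE, adjusted p = 5.73e-05)), were also higher.

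Markers of other cell types differed between ZZ and WT livers too. Spp1 is in both the cholangiocyte and the recruited macrophage list, so counts and sums of these lists, here and below, are not independent. Of 9 cholangiocyte markers tested 7 were higher, and their summed level was 255 to 289 CPM in ZZ and 81.9 to 108 CPM in WT livers. Of 9 markers of recruited macrophages and monocytes 9 were higher (261 to 309 CPM in ZZ, 30.3 to 46.0 CPM in WT), and of 8 stellate cell and fibroblast markers 7 were (679 to 782 CPM in ZZ, 257 to 277 CPM in WT). Of 7 hepatocyte markers 5 were lower (59020 to 82450 CPM in ZZ, 122400 to 135200 CPM in WT). The hepatocyte sum was also below WT in LIRKO (57720 to 81810 CPM) and ZZ LIRKO livers (71090 to 97800 CPM), so this was not particular to ZZ livers. The cholangiocyte markers Krt7 and Muc1 were under 1 CPM in all WT livers, as were 6 of the 9 recruited macrophage markers, and none of these lists had a marker under 1 CPM in all ZZ livers. The part of these cells in the members' differences was not tested. Gss, Nfe2l2, G6pdx, Ugdh and Taldo1 each failed to pass in at least 1 fit that left out a ZZ or WT library, and the other 14 passed in every such fit.

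**Figure D2:**
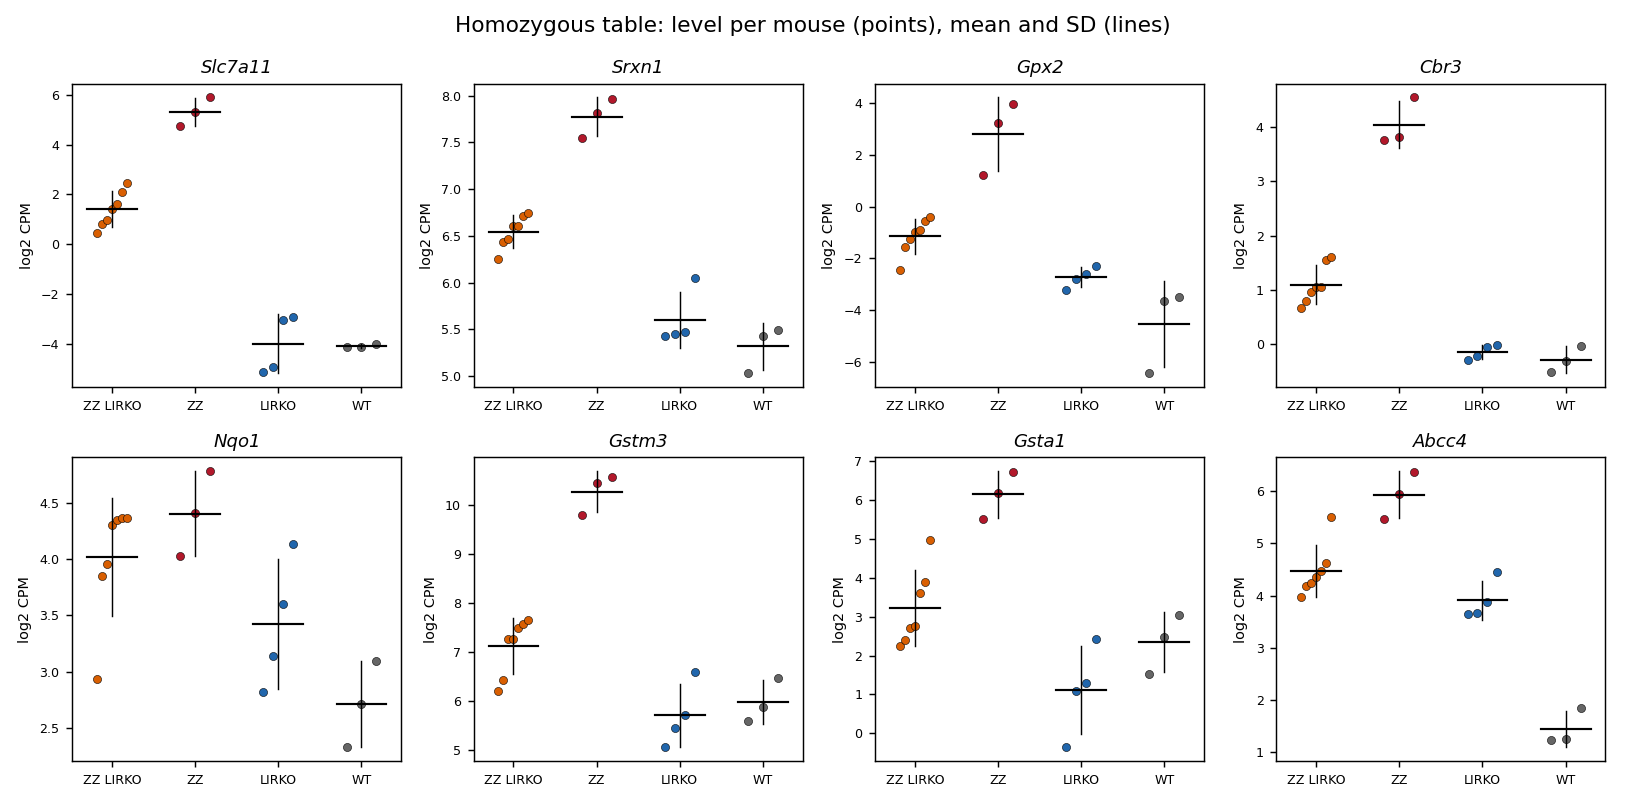
Level (log2 CPM) of 8 members in each mouse of the homozygous table. Points are mice, horizontal lines group means and vertical lines SD, and the vertical axis differs between panels. For Slc7a11, Srxn1, Gpx2, Cbr3, Gstm3 and Gsta1 the 3 ZZ mice stand above every other mouse, and ZZ LIRKO mice overlap with ZZ mice for Nqo1 and Abcc4.

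ZZ LIRKO livers were set against ZZ livers for the effect of insulin receptor loss under the homozygous transgene. Of 41 members 22 were lower (13.6% of all genes tested were lower) and 2 were higher (13.2% of all genes were higher). The median difference was -0.59, against -0.01 over all genes. The lower ones included Slc7a11, Srxn1, Gpx2, Cbr3, Gsta1, Abcc4 and 4 Gstm genes that were higher in ZZ than in WT livers. These comparisons share the ZZ mice, so the values are given side by side and no relation between the differences was computed.

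Slc7a11 had 0.45 to 2.47 (median 1.41) log2 CPM in the 7 ZZ LIRKO livers, against 5.89, 5.29 and 4.76 in ZZ livers, a difference of -3.90 ± 0.50 log2 units (SE, adjusted p = 5.3e-05). The ZZ LIRKO livers, with 65 to 318 reads, were lower than each ZZ liver and higher than each LIRKO or WT liver of the same table. Gclc had 7.14 to 8.73 (median 7.98) in ZZ LIRKO and 8.87, 8.75 and 8.92 in ZZ livers (-0.89 ± 0.25 log2 units (SE, adjusted p = 0.0148)). Gclm had 7.60 to 7.91 (median 7.77) in ZZ LIRKO livers and 7.84, 7.44 and 7.88 in ZZ livers, with no passing difference (0.03 ± 0.10, adjusted p = 0.844), and neither had Gss (0.05 ± 0.15, adjusted p = 0.848). For Gclc, ZZ LIRKO mouse 1858 at 8.73 was just under the lowest ZZ mouse at 8.75.

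Of the 6 reduction genes 4 were lower in ZZ LIRKO livers. Srxn1 had 6.25 to 6.74 (median 6.60) log2 CPM in ZZ LIRKO and 7.96, 7.81 and 7.55 in ZZ livers (-1.23 ± 0.15 log2 units (SE, adjusted p = 2.75e-05)). Gpx2 averaged -1.16 ± 0.69 in ZZ LIRKO and 2.79 ± 1.41 in ZZ livers (SD, n = 7 and 3), a difference of -3.95 ± 0.65 log2 units (SE, adjusted p = 0.000386). The groups were apart for both genes, and the ZZ LIRKO livers held 10 to 52 Gpx2 reads. Txn1 (-0.55) and Gsr (-0.33) were lower (adjusted p = 0.0042 and 0.0338), while Txnrd1 and Prdx1 did not pass. Of the regulators Sqstm1 was lower (-0.52 ± 0.12, adjusted p = 0.00415), and Nfe2l2 (-0.18 ± 0.12, adjusted p = 0.306) and Keap1 (0.16 ± 0.07, adjusted p = 0.106) did not pass.

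Among oxidoreductases and detoxication enzymes, Cbr3 had 0.66 to 1.60 (median 1.04) log2 CPM in ZZ LIRKO and 3.82, 4.55 and 3.77 in ZZ livers (-2.96 ± 0.22 log2 units (SE, adjusted p = 5.97e-07)). Aox1, aldehyde oxidase, averaged 5.99 ± 0.40 in ZZ LIRKO and 7.23 ± 0.05 in ZZ livers (SD, n = 7 and 3), a difference of -1.24 ± 0.20 log2 units (SE, adjusted p = 0.000314). Every ZZ LIRKO value of Cbr3 and Aox1 was under the ZZ values. Ephx1, microsomal epoxide hydrolase, was lower as well (-0.73 ± 0.19, adjusted p = 0.00819). Hmox1 was higher, with 4.96 to 6.07 (median 5.73) in ZZ LIRKO and 4.92, 4.5 and 4.77 in ZZ livers (0.87 ± 0.24 log2 units (SE, adjusted p = 0.0117)). Of 12 Kupffer cell and macrophage markers, cells that express Hmox1 when they clear red cells, 5 were higher and 1 lower in ZZ LIRKO livers, with sums of 617 to 892 CPM in ZZ LIRKO and 584 to 742 CPM in ZZ livers. Their part in the Hmox1 difference was not tested. Nqo1 had 2.94 to 4.37 (median 4.30) in ZZ LIRKO and 4.41, 4.78 and 4.03 in ZZ livers, overlapping values with no passing difference (-0.38 ± 0.31, adjusted p = 0.384).

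Of 11 transferase genes 8 were lower in ZZ LIRKO livers. Gstm3 had 6.2 to 7.65 (median 7.27) log2 CPM in ZZ LIRKO and 10.46, 10.58 and 9.80 in ZZ livers (-3.16 ± 0.35 log2 units (SE, adjusted p = 1.41e-05)). No ZZ LIRKO mouse came near the ZZ values of Gstm3. Gstm2 (-1.31 ± 0.22, adjusted p = 0.000394), Gstm6 (-1.18 ± 0.22, adjusted p = 0.000826), Gstm4 (-1.05 ± 0.22, adjusted p = 0.0021) and Gstm1 (-0.99 ± 0.21, adjusted p = 0.00237) were lower too, so that 5 of 5 Gstm members passed. Gsta1 (-2.92 ± 0.58, adjusted p = 0.00158), Gstp1 (-1.63 ± 0.34, adjusted p = 0.00207) and Gsta3 (-0.73 ± 0.22, adjusted p = 0.02) completed the 8. In ZZ LIRKO livers 8 of 12 genes known for higher levels in male liver were lower and 11 of 14 female-biased genes higher. The summed male-biased level was 401 to 1514 CPM in ZZ LIRKO and 4322 to 10590 CPM in ZZ livers. Gstp1 is known for higher levels in male liver, and the relation of this shift to the transferases was not tested.

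Taldo1 had 5.91 to 6.30 (median 6.14) log2 CPM in ZZ LIRKO and 6.69, 6.87 and 6.65 in ZZ livers, groups that were apart (-0.60 ± 0.08 log2 units (SE, adjusted p = 9.95e-05)). Pgd (-0.76 ± 0.16, adjusted p = 0.00208) and Me1 (-1.25 ± 0.32, adjusted p = 0.00782) were also lower, and G6pdx and Tkt did not pass. Among exporters Abcc3 was higher, with 9.12 to 9.69 (median 9.25) in ZZ LIRKO and 8.21, 8.40 and 8.10 in ZZ livers (1.10 ± 0.16 log2 units (SE, adjusted p = 0.000126)). Abcc4 was lower in ZZ LIRKO livers (-1.45 ± 0.28, adjusted p = 0.00117), where mouse 1855 at 5.50 overlapped with the lowest ZZ mouse at 5.47, and Abcc2 did not pass (-0.06 ± 0.17, adjusted p = 0.82). Of the 88 other pathway genes tested 17 were higher (13.2% of all genes) and 18 lower (13.6% of all genes). Aldh1a7, an aldehyde dehydrogenase (-2.04 ± 0.26 log2 units (SE, adjusted p = 4.83e-05)), and Tigar, which diverts glucose to the pentose phosphate pathway (-1.42 ± 0.19 log2 units (SE, adjusted p = 7.65e-05)), were among the lower. Txn2, the mitochondrial thioredoxin, was higher (0.60 ± 0.08 log2 units (SE, adjusted p = 7.28e-05)).

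Cholangiocyte markers were lower in ZZ LIRKO livers for 8 of 9 genes, with sums of 74.1 to 116 CPM in ZZ LIRKO and 255 to 289 CPM in ZZ livers. Recruited macrophage markers were lower for 3 of 9 (75.6 to 148 CPM in ZZ LIRKO, 261 to 309 CPM in ZZ), and stellate cell markers for 3 of 8 (346 to 604 CPM in ZZ LIRKO, 679 to 782 CPM in ZZ). Endothelial markers were higher for 7 of 8 (333 to 464 CPM in ZZ LIRKO, 248.5 to 268 CPM in ZZ) and lymphocyte markers for 2 of 7. Of 7 hepatocyte markers 3 were higher and 1 lower. The part of these cells in the members' lower levels was not tested. Gsr, Gclc, Gsta3 and Hmox1 failed to pass in at least 1 fit that left out a library of these groups, and the other 20 members passed in every such fit.

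**Figure D3:**
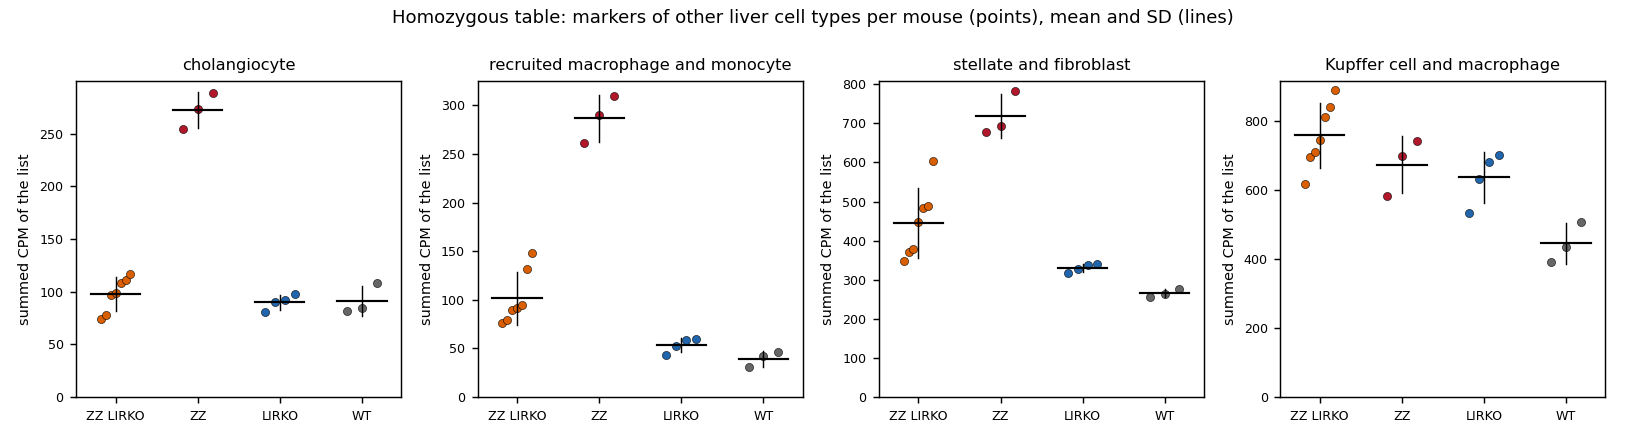
Summed level (CPM) of marker genes of 4 other liver cell types in each mouse of the homozygous table. Spp1 counts in both the cholangiocyte and the recruited macrophage sum. Points are mice, horizontal lines means and vertical lines SD. The 3 ZZ mice stand above all other mice for cholangiocyte, recruited macrophage and stellate cell markers, and ZZ LIRKO and ZZ mice overlap for Kupffer cell markers.

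Whether insulin receptor loss acted differently with and without the homozygous transgene was tested by the difference between ZZ LIRKO against ZZ and LIRKO against WT. Here 12 of 41 members were lower (4.72% of all genes tested) and 0 higher (3.03% of all genes). At an unadjusted p under 0.05 the counts were 23 lower and 0 higher. The median was -0.82, against 0.01 over all genes. Abcc4 had the second smallest p, with -3.92 ± 0.41 log2 units (SE, adjusted p = 0.000171). For it the difference was -1.45 ± 0.28 in ZZ LIRKO against ZZ and 2.47 ± 0.31 in LIRKO against WT, so that insulin receptor loss went with opposite directions. Cbr3 (-2.96 ± 0.22 with and 0.15 ± 0.24 without the transgene, adjusted p of the difference = 0.000171) and Srxn1 (-1.23 ± 0.15 and 0.28 ± 0.16, 0.00117) passed as well, and so did Gstm3 (-3.16 ± 0.35 and -0.28 ± 0.38, adjusted p of the difference = 0.00454). None of these 3 genes passed in LIRKO against WT livers.

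Gpx2 and Slc7a11 also passed (-5.74 ± 0.97, adjusted p = 0.00331 and -3.99 ± 0.75, adjusted p = 0.0058), but LIRKO livers held 8 to 15 reads of Gpx2 and 2 to 9 of Slc7a11, against 0 to 6 and 2 to 4 in WT livers, so these values depend on the 0.5 reads added before the logarithm. With voom weights neither passed (adjusted p = 0.0926 for Gpx2 and 0.174 for Slc7a11). Gstm4, Gstm1, Sqstm1, Pgd, Ephx1 and Gsta4 made up the 12, with differences of -0.69 to -1.39, and each of these 6 was lost in at least 1 fit without 1 library. The count fell to 6 without ZZ mouse 1682 and to 6 without ZZ mouse 1809, and to 7 without LIRKO mouse 1474. It was 5 without the libraries that held pancreatic Prss2 transcripts above 0 log2 CPM, a setting with 1 WT mouse, whose spread is taken from the other groups. In the same difference 6 of 9 cholangiocyte markers (median -1.85), 4 of 8 stellate cell markers (median -0.60) and 1 of 9 recruited macrophage markers (median -1.22) were lower. The cholangiocyte sum was 80.4 to 97.4 CPM and the stellate cell sum 317 to 340 CPM in LIRKO livers, beside the sums of the other groups above. Their part in the members' difference was not tested. Of the 88 other pathway genes 1 was higher (3.03% of all genes) and 8 lower (4.72% of all genes), led by Slc3a2 (-1.4 ± 0.24 log2 units (SE, adjusted p = 0.00318)), Mafk (-1.01 ± 0.18 log2 units (SE, adjusted p = 0.00402)) and Gpx7, a peroxidase of the endoplasmic reticulum (-2.10 ± 0.38 log2 units (SE, adjusted p = 0.005)). Without the transgene Mafk was higher in LIRKO than in WT livers of this table (1.26 ± 0.13 log2 units (SE, limma adjusted p = 7.66e-06)).

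LIRKO livers were compared with WT livers for insulin receptor loss without the transgene, in the same 7 mice in both tables. Of 41 members in the homozygous table, 8 were higher (13.8% of all genes) and 4 lower (14% of all genes), and of 40 in the hemizygous table, 9 were higher (11.8% of all genes) and 4 lower (12% of all genes). The median difference of the members was 0.17 in the homozygous and 0.20 in the hemizygous table, against 0.00 and 0.01 over all genes. The share of lower members is near that of all genes and is not a result about the members. Of the 40 members in both, 12 passed in both tables with the same sign, which repeats the sequencing and not the mice.

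Exporters were higher for 3 of 3 genes. Abcc4 had 3.67, 4.45, 3.88 and 3.66 log2 CPM in LIRKO and 1.23, 1.84 and 1.26 in WT livers of the homozygous table (2.47 ± 0.31 log2 units (SE, adjusted p = 3.69e-05)), and 4.11, 4.74, 4.40 and 3.69 in LIRKO and 2.31, 1.72 and 2.09 in WT livers of the hemizygous table (2.19 ± 0.31 log2 units (SE, adjusted p = 1.59e-05)). Abcc3 differed by 0.81 ± 0.17 log2 units (SE, adjusted p = 0.00287) in the homozygous and 0.93 ± 0.24 log2 units (SE, adjusted p = 0.00733) in the hemizygous table, and Abcc2 by 0.67 ± 0.18 log2 units (SE, adjusted p = 0.0133) and 0.81 ± 0.16 log2 units (SE, adjusted p = 0.000752). LIRKO and WT mice did not overlap for any exporter in either table. Of 13 CAR and PXR target genes 8 and 7 were higher in LIRKO livers of these tables, and the relation to the exporters was not tested.

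Cbr1 had 7.19, 7.36, 7.33 and 7.02 log2 CPM in LIRKO and 5.91, 6.71 and 6.0 in WT livers of the homozygous table (1.02 ± 0.21 log2 units (SE, adjusted p = 0.00189)). In the hemizygous table its values were 6.82, 7.14, 7.04 and 6.78 in LIRKO and 5.82, 6.41 and 5.78 in WT livers (0.94 ± 0.15 log2 units (SE, adjusted p = 4.65e-05)). WT mouse 1586 stood apart from the other WT mice towards the LIRKO values in both tables. Osgin1, an oxidative stress-induced growth inhibitor, had 9.37, 9.39, 9.39 and 8.61 in LIRKO and 7.68, 7.20 and 7.81 in WT livers of the homozygous table (1.62 ± 0.38 log2 units (SE, adjusted p = 0.00536)). The aldo-keto reductase gene Akr1b8 (1.06 ± 0.27, adjusted p = 0.00779), Gss (0.59 ± 0.17, adjusted p = 0.0175) and Gsta4, a transferase for lipid aldehydes (0.69 ± 0.21, adjusted p = 0.0221), were higher too.

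The 4 lower genes were Aox1, Gstm6, Gsta3 and Taldo1. Aox1 had 6.11, 6.43, 5.85 and 5.72 log2 CPM in LIRKO and 7.08, 6.90 and 7.14 in WT livers of the homozygous table (-1.01 ± 0.22 log2 units (SE, adjusted p = 0.00331)). Gstm6 had 5.55, 5.70, 5.49 and 5.41 in LIRKO and 6.70, 6.62 and 6.45 in WT livers there (-1.05 ± 0.24 log2 units (SE, adjusted p = 0.00416)). Both genes were lower in every LIRKO mouse than in every WT mouse, as was Taldo1 (-0.38 ± 0.09, adjusted p = 0.00675) and Gsta3 (-0.80 ± 0.24, adjusted p = 0.0207). In the hemizygous table these differed by -0.99, -1.10, -0.36 and -0.89. Nfe2l2 passed in the hemizygous table, with 6.42, 6.41, 6.23 and 6.04 in LIRKO and 5.87, 5.74 and 5.93 in WT livers (0.43 ± 0.16 log2 units (SE, adjusted p = 0.0472), against 0.32 ± 0.14, adjusted p = 0.0853 in the homozygous table).

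Keap1 (0.02 and 0.03 in the hemizygous and homozygous tables), Nqo1 (0.54 and 0.71), Gclm (0.21 and 0.06) and Hmox1 (0.45 and 0.57) did not pass. Gclc averaged 7.98 ± 0.33 in LIRKO and 8.57 ± 0.11 in WT livers of the homozygous table and did not pass (-0.59 ± 0.28, adjusted p = 0.127, SD with n = 4 and 3). Of other pathway genes 17 of 88 were higher and 9 lower in the homozygous, and 15 of 84 higher and 10 lower in the hemizygous table. Aldh1a7 was lower in both (-2.28 ± 0.29, adjusted p = 4.11e-05 and -2.39 ± 0.26, adjusted p = 4.35e-07). Mafk (1.26 ± 0.13, limma adjusted p = 7.66e-06) and Akr1b7 (6.08 ± 0.68, adjusted p = 1.5e-05) were higher in the homozygous table. In the hemizygous table Gstt2 (1.54 ± 0.17, limma adjusted p = 7.2e-07) and Gpx7 (1.83 ± 0.26, adjusted p = 1.91e-05) were higher. Of 12 acinar pancreas markers 9 were lower in LIRKO livers in the homozygous and 4 in the hemizygous table, and of 12 male-biased genes 9 and 12 were, and their part was not tested. Early-phase clock genes were lower for 4 of 5 in the homozygous (53.0 to 89.4 CPM in LIRKO, 118 to 204 CPM in WT) and 5 of 5 in the hemizygous table (68.6 to 108 CPM in LIRKO, 143 to 214 CPM in WT), and late-phase ones higher for 1 and 4 of 5. With clock phase as a covariate 3 members were higher and 7 lower in the homozygous table, 7 of these 10 among the 12 named above, and 8 passed in the hemizygous table, 7 of them among the 13. Kupffer cell and macrophage markers were higher for 8 of 12 in the homozygous and 5 of 12 in the hemizygous table. Without the libraries with Prss2 above 0 log2 CPM, which keeps WT mouse 1564 as the lone WT sample with its spread taken from the other groups, 6 and 7 members passed.

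Z livers were set against WT livers for the effect of the hemizygous transgene. Of 40 members 7 were higher (5.89% of all genes tested) and 0 lower (4.54% of all genes), and at an unadjusted p under 0.05 the counts were 15 higher and 1 lower. The median difference was 0.27, against -0.01 over all genes. The 7 were 3 reduction genes (Gsr, Srxn1 and Gpx2), 2 Gstm genes, Abcc2 and Slc7a11, and their differences other than for Gpx2 and Slc7a11 were 0.60 to 1.55 log2 units.

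Gsr had 7.11, 7.0, 7.10, 7.24 and 7.14 log2 CPM in the 5 Z livers, against 6.33, 6.57 and 6.49 in the 3 WT livers, a difference of 0.66 ± 0.09 log2 units (SE, adjusted p = 6.99e-05). Srxn1 had 6.81, 6.37, 6.83, 6.39 and 6.49 in Z and 5.43, 5.85 and 5.80 in WT livers (0.89 ± 0.20 log2 units (SE, adjusted p = 0.00434)). Every Z mouse was above every WT mouse for both. Gpx2 had -0.71, -3.06, -1.54, -2.03 and -1.04 in Z and -4.91, -5.35 and -3.79 in WT livers (3.01 ± 0.83 log2 units (SE, adjusted p = 0.0209)). In reads this is 35 summed over Z livers and 1 over WT livers, a size-scaled ratio of 19.9 (95% exact interval 3.35 to 809, counting error only). It was 12.9 without WT mouse 1586, and without WT mouse 1601 the WT livers held 0 reads. Slc7a11, at -0.99 ± 1.35 in Z and -3.91 ± 1.4 in WT livers (SD, n = 5 and 3), held 89 reads in Z and 3 in WT livers, of which Z mouse 1410 alone gave 65.

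Abcc2 had 9.69, 10.01, 10.15, 10.33 and 10.06 log2 CPM in Z and 9.43, 9.39 and 9.52 in WT livers (0.60 ± 0.15 log2 units (SE, adjusted p = 0.0132)). Gstm4 had 6.78, 6.76, 6.55, 6.49 and 6.28 in Z and 5.76, 5.88 and 6.10 in WT livers (0.65 ± 0.18 log2 units (SE, adjusted p = 0.0233)), and Gstm3 had 8.17, 6.71, 6.76, 6.86 and 6.99 in Z and 6.01, 5.41 and 5.22 in WT livers (1.55 ± 0.45 log2 units (SE, adjusted p = 0.0273)). The groups were apart for all 3 genes, and Z mouse 1410 was highest for both Gstm genes. Nqo1 had 4.06, 3.09, 3.80, 3.30 and 3.57 in Z and 2.61, 2.93 and 3.23 in WT livers, which overlapped (0.64 ± 0.31, adjusted p = 0.19). Nfe2l2 (0.01 ± 0.15, adjusted p = 0.981), Keap1 (0.13 ± 0.08, adjusted p = 0.327), Gclc (0.16 ± 0.19, adjusted p = 0.648), Gclm (0.21 ± 0.13, adjusted p = 0.341) and Hmox1 (-0.37 ± 0.20, adjusted p = 0.246) did not pass. Cbr3 (0.28 ± 0.35, adjusted p = 0.674) and Abcc4 (-0.02 ± 0.30, adjusted p = 0.97), which differed by over 4 log2 units in ZZ against WT livers, did not pass here. Dose itself was not tested, since Z and ZZ livers stand in separate tables.

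Of the other pathway genes 9 of 84 were higher (5.89% of all genes) and 1 lower (4.54% of all genes) in Z livers, led by Gpx4, the lipid hydroperoxide peroxidase (0.64 ± 0.12 log2 units (SE, adjusted p = 0.000981)), the biliverdin reductase gene Blvrb (0.71 ± 0.15 log2 units (SE, adjusted p = 0.00385)) and the glutaredoxin gene Glrx (0.63 ± 0.16 log2 units (SE, adjusted p = 0.0104)). Of 9 cholangiocyte markers 1 was higher in Z livers, and of 9 recruited macrophage markers 0 were. Of 5 clock genes of the late phase (such as Dbp) 2 were higher in Z livers, and of 5 of the early phase (such as Arntl) 0 passed. The late-phase sum was 163 to 510 CPM in Z and 170 to 272 CPM in WT livers, and the early-phase sum 102 to 158 CPM in Z and 143 to 214 CPM in WT livers. With clock phase as a covariate 1 of the 7 members passed, Gsr (0.58, adjusted p = 0.0046). The count was 2 without WT mouse 1586 and 2 without the libraries with Prss2 above 0 log2 CPM, and Gsr and Srxn1 were the 2 members that passed in every fit that left out a library.

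Zstar livers, from the other source label, had 11 members higher (8.58% of all genes tested) and 1 lower (7.47% of all genes) than WT livers, with a median difference of 0.22, against -0.02 over all genes. Gsr had 6.88, 6.76, 7.03, 7.04 and 6.89 log2 CPM in Zstar livers (0.46 ± 0.09 log2 units (SE, adjusted p = 0.00132)), Srxn1 had 6.28, 6.32, 6.96, 6.46 and 6.62 (0.84 ± 0.20 log2 units (SE, adjusted p = 0.00499)) and Gstm3 had 7.78, 6.74, 8.98, 7.54 and 6.13 (1.89 ± 0.45 log2 units (SE, adjusted p = 0.00575)), against the WT values given above. All Zstar mice were above all WT mice for these genes, as they were for Gstm4 at 6.27, 6.35, 7.12, 6.92 and 6.44 (0.71 ± 0.18 log2 units (SE, adjusted p = 0.0107)). Pgd had 5.76, 5.60, 6.18, 5.93 and 5.45 in Zstar and 5.32, 4.89 and 5.30 in WT livers (0.61 ± 0.17 log2 units (SE, adjusted p = 0.0133)). The lower gene was Gstm6, with 5.05, 5.79, 6.12, 6.16 and 5.08 in Zstar and 6.73, 6.71 and 6.54 in WT livers (-1.02 ± 0.20 log2 units (SE, adjusted p = 0.00125)). Gsta1 held 201 reads in Zstar and 25 in WT livers, a size-scaled ratio of 5.43 (95% exact interval 3.57 to 8.59), which was 8.54 without WT mouse 1601. Of other pathway genes 11 of 84 were higher (8.58% of all genes) and 10 lower (7.47% of all genes), with Gpx4 higher (0.60 ± 0.12 log2 units (SE, adjusted p = 0.00122)) and Cbs, which starts transsulfuration toward cysteine (-0.80 ± 0.18 log2 units (SE, adjusted p = 0.00344)), and the glutaredoxin gene Glrx2 (-0.52 ± 0.12 log2 units (SE, adjusted p = 0.00344)) lower. Of the early-phase clock genes 3 of 5 were lower in Zstar livers (96.3 to 134 CPM in Zstar, 143 to 214 CPM in WT), and of the late-phase ones 3 of 5 were higher (322 to 529 CPM in Zstar, 170 to 272 CPM in WT). With clock phase as a covariate 1 of the 12 members passed, the lower Gstm6 (-0.98, adjusted p = 0.0344). The count was 3 without the libraries with Prss2 above 0 log2 CPM and 6 without WT mouse 1586.

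Between Zstar and Z livers 0 members were higher (4.37% of all genes tested) and 3 lower (5.1% of all genes), and at an unadjusted p under 0.05 the counts were 2 higher and 9 lower. The median difference was -0.04, against -0.00 over all genes. In either direction 7.5% of members passed, against 9.47% of all genes. The share of passing members is near that of all genes and is not a result about the members. Gstm6 averaged 5.64 ± 0.54 in Zstar and 6.37 ± 0.19 in Z livers (SD, n = 5 each), a difference of -0.73 ± 0.17 log2 units (SE, adjusted p = 0.00927). Abcc3 had 7.84, 7.79, 8.19, 8.49 and 7.83 in Zstar and 8.38, 8.90, 8.70, 9.02 and 8.57 in Z livers (-0.69 ± 0.20 log2 units (SE, adjusted p = 0.0316)). Mgst3, a microsomal transferase, had 3.11, 2.95, 4.29, 4.19 and 3.57 in Zstar and 4.98, 3.84, 4.71, 4.15 and 4.80 in Z livers (-0.88 ± 0.27 log2 units (SE, adjusted p = 0.042)). The groups overlapped for all 3 genes. The count was 1 without Z mouse 1442, Zstar mouse 120 or Zstar mouse 182 (each alone), and Gstm6 passed in every such fit. Of other pathway genes 2 of 84 were higher (4.37% of all genes) and 4 lower (5.1% of all genes). The share of lower ones is near that of all genes and is not a result about the pathway. Among the lower were Nnt, which makes mitochondrial NADPH (-0.39 ± 0.08 log2 units (SE, adjusted p = 0.00281)), and the methionine cycle genes Mat1a (-0.66 ± 0.16 log2 units (SE, adjusted p = 0.0101)) and Ahcy (-1.28 ± 0.31 log2 units (SE, adjusted p = 0.0102)).

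In Z LIRKO livers, set against Z livers, 6 of 40 members were higher (16.7% of all genes tested) and 10 lower (17.7% of all genes). The share of higher members is near that of all genes and is not a result about the members. The median difference was -0.17, against 0.02 over all genes. The exporters Abcc4 and Abcc3, the oxidoreductase and detoxication genes Hmox1, Osgin1 and Cbr1, and Nfe2l2 were higher. Of 10 transferase genes 4 were lower, with Gclc, Gsr, Txn1, Aox1, Taldo1 and Me1.

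Abcc4 had 4.79, 4.29, 4.5 and 4.08 log2 CPM in the 4 Z LIRKO livers, against 2.38, 1.74, 1.98, 2.06 and 1.92 in the 5 Z livers (2.40 ± 0.27 log2 units (SE, adjusted p = 5.24e-07)). Hmox1 had 5.38, 5.29, 5.34 and 5.56 in Z LIRKO and 4.84, 4.19, 4.09, 3.92 and 3.94 in Z livers (1.2 ± 0.18 log2 units (SE, adjusted p = 2.6e-05)). Both genes were higher in each Z LIRKO mouse than in each Z mouse. Of 12 Kupffer cell and macrophage markers 10 were higher in Z LIRKO livers (1041 to 1225 CPM in Z LIRKO, 592 to 886 CPM in Z), and their part in the Hmox1 difference was not tested.

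Aox1 had 6.10, 5.97, 6.03 and 6.24 log2 CPM in Z LIRKO and 7.33, 7.27, 7.58, 7.40 and 7.10 in Z livers (-1.25 ± 0.17 log2 units (SE, adjusted p = 5.08e-06)). Gsta3, an alpha-class transferase, had 9.73, 9.47, 9.28 and 9.23 in Z LIRKO and 10.46, 10.40, 10.70, 10.50 and 10.51 in Z livers (-1.09 ± 0.18 log2 units (SE, adjusted p = 5.5e-05)). No Z LIRKO mouse reached the Z values of either gene. Taldo1 had 5.94, 5.96, 5.76 and 5.52 in Z LIRKO and 6.25, 6.55, 6.38, 6.52 and 6.39 in Z livers (-0.62 ± 0.11 log2 units (SE, adjusted p = 0.000157)), and Gstm6 had 5.60, 5.79, 5.32 and 5.22 in Z LIRKO and 6.35, 6.5, 6.62, 6.24 and 6.14 in Z livers (-0.89 ± 0.18 log2 units (SE, adjusted p = 0.000691)). These groups were apart too.

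Gclc had 7.73, 7.77, 8.07 and 8.27 log2 CPM in Z LIRKO and 8.71, 8.75, 8.92, 8.79 and 8.37 in Z livers (-0.75 ± 0.17 log2 units (SE, adjusted p = 0.00196)), while Gclm had 7.59, 7.37, 7.59 and 7.99 in Z LIRKO and 7.69, 7.70, 7.76, 7.95 and 7.64 in Z livers and did not pass (-0.11 ± 0.12, adjusted p = 0.501). Gclc was lower in each Z LIRKO mouse than in each Z mouse, and the Gclm values overlapped. Gsr (-0.40 ± 0.08, adjusted p = 0.000836), Txn1 (-0.81 ± 0.18, adjusted p = 0.00126), Me1 (-0.99 ± 0.29, adjusted p = 0.0113) and Gstm3 (-1.55 ± 0.41, adjusted p = 0.00563) were lower. Gsta1 held 13 reads in Z LIRKO and 140 in Z livers, a size-scaled ratio of 0.121 (95% exact interval 0.0629 to 0.214). Z mouse 1410 gave 71 of the 140 reads, and without it the ratio was 0.191 (95% exact interval 0.0969 to 0.349). Nfe2l2 had 6.12, 6.11, 6.35 and 6.51 in Z LIRKO and 6.11, 5.96, 5.80, 5.73 and 5.67 in Z livers (0.42 ± 0.14 log2 units (SE, adjusted p = 0.0214)), and it was the 1 member of the 16 that failed to pass in some fit that left out a library. Keap1, at 6.28, 6.18, 6.35 and 6.31 in Z LIRKO and 6.27, 6.46, 6.16, 6.31 and 6.22 in Z livers, did not pass (-0.00 ± 0.08, adjusted p = 0.971), nor did Nqo1 (0.10 ± 0.28, adjusted p = 0.817).

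Of other pathway genes 16 of 84 were higher (16.7% of all genes) and 25 lower (17.7% of all genes) in Z LIRKO livers. The share of higher ones is near that of all genes and is not a result about the pathway. The lower were led by the aldehyde dehydrogenases Aldh1a7 (-2.61 ± 0.23 log2 units (SE, adjusted p = 8.31e-09)) and Aldh1a1 (-2.70 ± 0.27 log2 units (SE, adjusted p = 8.78e-08)) and the methionine sulfoxide reductase gene Msrb1 (-0.80 ± 0.11 log2 units (SE, adjusted p = 6.42e-06)). Of 12 male-biased liver genes 12 were lower in Z LIRKO livers, and of 7 lymphocyte markers 7 were higher. Endothelial markers were higher for 7 of 8 and female-biased genes for 7 of 12. Of 7 hepatocyte markers 2 were higher and 3 lower. Their part in the members' differences was not tested.

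The difference between Z LIRKO against Z and LIRKO against WT, which asks whether the hemizygous transgene altered the effect of insulin receptor loss, passed for 0 members higher (0.0588% of all genes tested) and 0 lower (0.14% of all genes) in limma, with a median difference of -0.32, against -0.00 over all genes. At an unadjusted p under 0.05, 1 member was higher and 8 were lower, and limma with voom weights also gave 0. Gsr had the smallest adjusted p, with -0.52 ± 0.13 log2 units (SE, adjusted p = 0.118). For Abcc4 the difference was 2.40 ± 0.27 in Z LIRKO against Z and 2.19 ± 0.31 in LIRKO against WT livers (0.20 ± 0.41, adjusted p = 0.909 for the difference between them).

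FOXO1 loss was added in Z LIRKO F1KO livers, which were set against Zstar livers of the same source label. Of 40 members 7 were higher (12.4% of all genes tested) and 5 lower (11.1% of all genes), with a median difference of -0.04, against -0.01 over all genes. The share of lower members is near that of all genes and is not a result about the members. Hmox1, G6pdx, Gpx2, Nqo1, Mgst3, Gss and Akr1b8 were higher, and Taldo1, Aox1, Gstm4, Gclm and Gsta4 were lower. Of these 12, Taldo1 and Hmox1 had groups that did not overlap.

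Taldo1 had 6.32, 6.22, 6.27, 6.25 and 5.95 log2 CPM in the 5 Z LIRKO F1KO livers and 6.72, 6.66, 6.40, 6.95 and 6.76 in the 5 Zstar livers (-0.49 ± 0.10 log2 units (SE, adjusted p = 0.00139)). Hmox1 had 5.52, 5.19, 5.34, 5.61 and 5.74 in Z LIRKO F1KO and 4.94, 4.77, 4.70, 4.77 and 4.24 in Zstar livers (0.79 ± 0.17 log2 units (SE, adjusted p = 0.00176)). Of 12 Kupffer cell and macrophage markers 12 were higher in Z LIRKO F1KO livers (974 to 1867 CPM in Z LIRKO F1KO, 496 to 615 CPM in Zstar), and their part in the Hmox1 difference was not tested. Nqo1 had 3.61, 3.89, 4.73, 4.64 and 4.27 in Z LIRKO F1KO and 3.14, 3.21, 3.98, 3.35 and 2.33 in Zstar livers (1.02 ± 0.27 log2 units (SE, adjusted p = 0.0067)). G6pdx, the first enzyme of the pentose phosphate pathway, had 3.32, 2.95, 3.42, 3.60 and 3.51 in Z LIRKO F1KO and 2.88, 2.59, 3.18, 2.52 and 2.73 in Zstar livers (0.58 ± 0.14 log2 units (SE, adjusted p = 0.00486)). Zstar mouse 249 reached into the Z LIRKO F1KO values of both genes.

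Gpx2 had -1.89, 1.0, -1.87, 0.22 and 0.29 log2 CPM in Z LIRKO F1KO and -5.18, -3.52, -1.09, -3.52 and -3.12 in Zstar livers (2.83 ± 0.72 log2 units (SE, adjusted p = 0.00579)), with 102 and 10 reads in all and a size-scaled ratio of 9.41 (95% exact interval 4.91 to 20.2). Zstar mouse 249 gave 7 of the 10 reads, and without it the ratio was 25.4 (95% exact interval 8.44 to 125). Gpx2 reached the filter level in none of the Zstar livers. Mgst3 had 4.06, 4.33, 4.98, 4.77 and 4.76 in Z LIRKO F1KO and 3.11, 2.95, 4.29, 4.19 and 3.57 in Zstar livers (0.96 ± 0.27 log2 units (SE, adjusted p = 0.012)). Both spread widely in each group, and the groups overlapped. Gclm had 7.60, 7.48, 7.40, 7.18 and 7.16 in Z LIRKO F1KO and 7.81, 7.66, 7.72, 7.60 and 7.58 in Zstar livers, with a small difference (-0.31 ± 0.11 log2 units (SE, adjusted p = 0.0487)), and Gclc, at 8.61, 8.35, 8.22, 8.0 and 8.90 in Z LIRKO F1KO and 8.20, 8.21, 8.33, 8.44 and 8.58 in Zstar livers, did not pass (0.06 ± 0.16, adjusted p = 0.82). Slc7a11 held 5, 10, 42, 91 and 148 reads in the Z LIRKO F1KO livers, a spread in which it did not pass (1.60 ± 0.78, adjusted p = 0.139). Nfe2l2 (-0.16 ± 0.13, adjusted p = 0.397) and Keap1 (-0.10 ± 0.07, adjusted p = 0.324) did not pass. Male-biased liver genes were lower for 7 of 12 (3406 to 17440 CPM in Z LIRKO F1KO, 11080 to 17780 CPM in Zstar) and female-biased ones higher for 3 of 12. Endothelial markers were higher for 5 of 8 (425 to 514 CPM in Z LIRKO F1KO, 286 to 401 CPM in Zstar), recruited macrophage markers for 4 of 9 (52.1 to 170 CPM in Z LIRKO F1KO, 40 to 68 CPM in Zstar), lymphocyte markers for 3 of 7 and stellate cell markers for 2 of 8. Their part in the members' differences was not tested. The count of 12 fell to 7 without Z LIRKO F1KO mouse 207. Of other pathway genes 9 of 84 were higher (12.4% of all genes) and 18 lower (11.1% of all genes). The share of higher ones is near that of all genes and is not a result about the pathway. Gpx1, the main cytosolic glutathione peroxidase (-0.80 ± 0.12 log2 units (SE, adjusted p = 5.13e-05)), and Msrb1 (-0.61 ± 0.10 log2 units (SE, adjusted p = 0.000163)) were lower and the exporter gene Abcc1 (1.17 ± 0.18 log2 units (SE, adjusted p = 8.12e-05)) was higher.

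The joint loss of insulin receptor and FOXO1 was compared with loss of the receptor alone. The value tested was the difference between Z LIRKO F1KO against Zstar and Z LIRKO against Z. No group lacked only FOXO1, so the effect of FOXO1 loss by itself cannot be told apart from a changed receptor effect. Of 40 members 5 were higher (3.27% of all genes tested) and 2 lower (3.35% of all genes), and at an unadjusted p under 0.05 the counts were 16 higher and 4 lower. The median was 0.12, against 0.02 over all genes. The share of lower members is near that of all genes and is not a result about the members. The 2 arms carry different source labels, each with its own control. Abcc4 differed most clearly, by -2.15 ± 0.37 log2 units (SE, adjusted p = 0.000882): it had 2.12, 1.99, 2.32, 2.10 and 2.03 log2 CPM in Z LIRKO F1KO and 1.92, 1.58, 3.01, 1.99 and 0.85 in Zstar livers, a difference of 0.24 ± 0.26 log2 units, against 2.40 ± 0.27 in Z LIRKO against Z livers. The Z LIRKO F1KO mice lay below every Z LIRKO mouse for Abcc4, in the range of the Z and Zstar mice.

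Gsr differed by 0.52 ± 0.11 log2 units (SE, adjusted p = 0.00668) between the arms, with 7.03, 7.24, 6.94, 7.09 and 6.94 log2 CPM in Z LIRKO F1KO and 6.88, 6.76, 7.03, 7.04 and 6.89 in Zstar livers, and 6.76, 6.70, 6.73 and 6.70 in Z LIRKO and 7.11, 7.0, 7.10, 7.24 and 7.14 in Z livers. Gstm6 differed by 1.03 ± 0.25 log2 units (SE, adjusted p = 0.0148), with arm differences of 0.14 ± 0.17 (Z LIRKO F1KO against Zstar) and -0.89 ± 0.18 (Z LIRKO against Z). In both genes the fall of the Z LIRKO arm was not seen in the other arm. Gstm6 averaged 5.78 in Z LIRKO F1KO, 5.64 in Zstar, 5.48 in Z LIRKO and 6.37 in Z livers. Its Zstar control was thus itself lower than Z, a difference that passed as given above. The arms of Gstm6 therefore start from different control levels. Gsta3 differed by 0.94 ± 0.24 log2 units (SE, adjusted p = 0.0207), with arm differences of -0.15 ± 0.17 and -1.09 ± 0.18. Gclc differed by 0.81 ± 0.24 log2 units (SE, adjusted p = 0.0418), with 0.06 ± 0.16 and -0.75 ± 0.17.

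Aox1 differed by 0.76 ± 0.23 log2 units (SE, adjusted p = 0.0469) between the arms and was lower in each of them (-0.49 ± 0.16 in Z LIRKO F1KO against Zstar, -1.25 ± 0.17 in Z LIRKO against Z). Osgin1 had 8.13, 7.91, 6.54, 5.93 and 6.45 log2 CPM in Z LIRKO F1KO and 7.87, 7.94, 6.31, 6.94 and 8.58 in Zstar livers, and 8.62, 7.66, 7.86 and 9.19 in Z LIRKO and 7.71, 7.27, 5.88, 5.86 and 6.46 in Z livers, a difference between arms of -2.23 ± 0.65 log2 units (SE, adjusted p = 0.0396). Its values spread by over 2 log2 units within Z LIRKO F1KO and within Zstar livers. Of other pathway genes 4 of 84 were higher (3.27% of all genes) and 1 lower (3.35% of all genes), with Aldh1a7 (2.42 ± 0.31 log2 units (SE, adjusted p = 2.42e-05)), Aldh1a1 (1.82 ± 0.38 log2 units (SE, adjusted p = 0.00407)) and Idh1, a cytosolic NADPH source (0.73 ± 0.18 log2 units (SE, adjusted p = 0.0154)), higher. Of 12 male-biased genes 7 and of 12 Kupffer cell and macrophage markers 2 were higher in this difference, and of 12 female-biased genes 4 were lower, and their part in it was not tested. The count of 7 members was 3 to 9 when single libraries were left out: 3 without Z LIRKO mouse 1428, and 4 without Z mouse 1442, Z mouse 1443, Z LIRKO mouse 1412, Zstar mouse 120 or Zstar mouse 182 (each alone). Abcc4, Gsr and Gstm6 passed in every such fit.

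**Figure D4:**
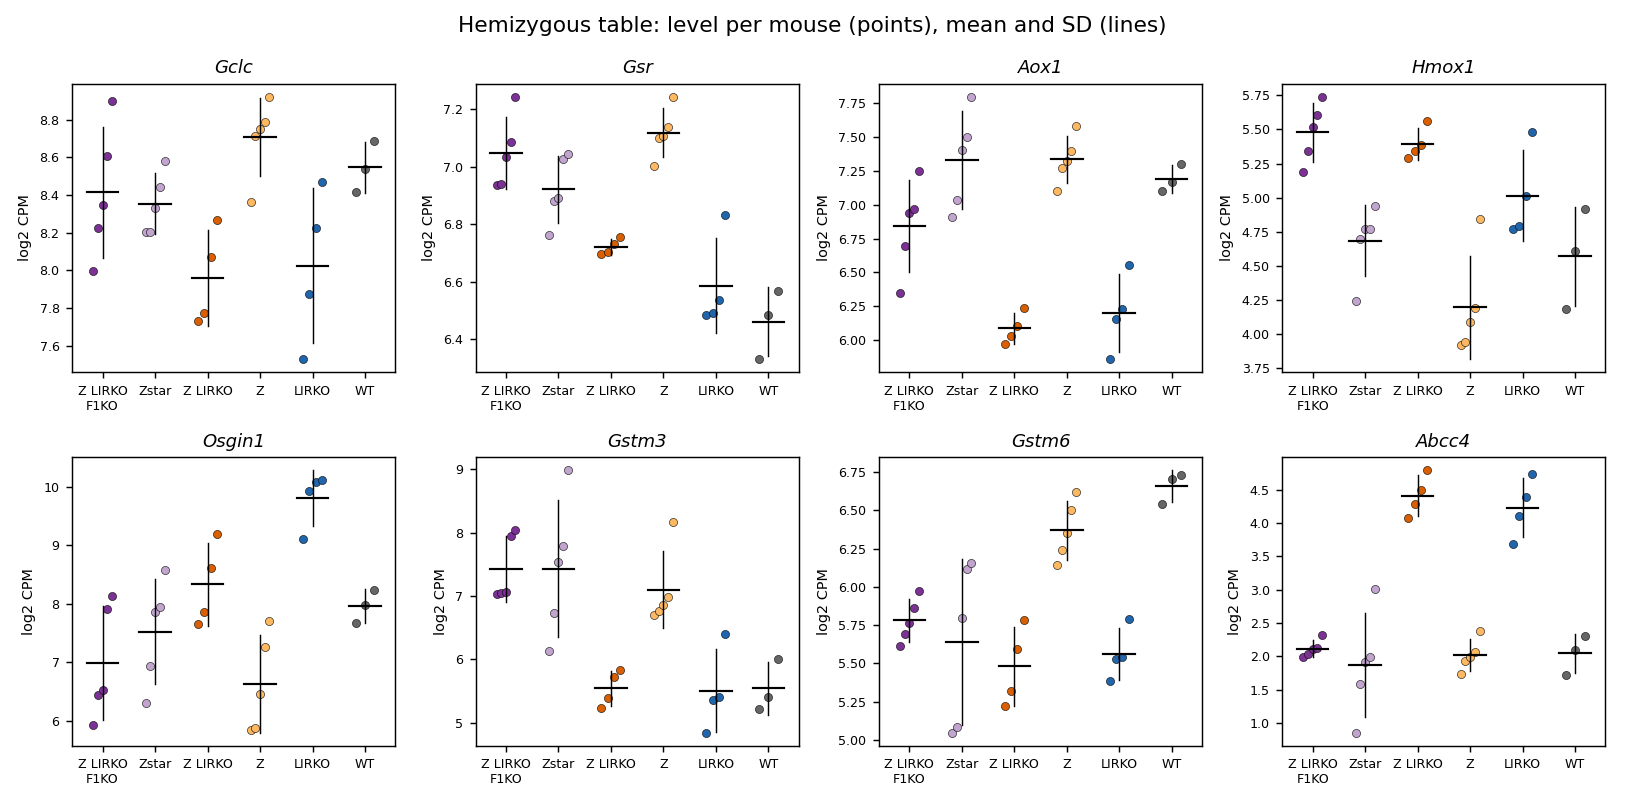
Level (log2 CPM) of 8 members in each mouse of the hemizygous table. Points are mice, horizontal lines group means and vertical lines SD, and the vertical axis differs between panels. For Abcc4 the Z LIRKO and LIRKO mice stand above all others, while the 5 Z LIRKO F1KO mice lie at 1.99 to 2.32, among the Zstar, Z and WT mice.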

How the data were processed

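Liver RNA was sequenced in 43 libraries of 36 mice. The values analysed are log2 CPM (read counts scaled to library size, on a log2 scale) as deposited by the authors in 2 gene tables that were scaled separately, so no test was run across them. The submitters' processing notes name STAR 2.0.4b, Subread, featureCounts 1.4.5 and the build GRCm38. How strand was used in counting is not given in the sources used here. Low values were whole multiples of a single read, after the 0.5 reads added before the logarithm, within a tolerance of 0.01 reads, so read numbers could be recovered. Of the read numbers under 40, 46.4% to 64.1% were even in the homozygous libraries, so counting intervals there may be too narrow; they cover counting error only. Of the sample columns 1 matched no sample of the labels and was not used.

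Genes that reached 0 log2 CPM in 3 or more libraries of a table were tested with limma 3.58.1 (R 4.3.3; empirical Bayes with a trend, 1 mean per group over all groups of the table, two-sided). P-values were adjusted by the Benjamini-Hochberg method over all genes of the table with a threshold of 0.05. Python 3.11.15, pandas 2.3.3 and scipy 1.17.1 gave the summaries and intervals. The labels give each library its own mouse number, with the 7 WT and LIRKO mice in both tables. On simulated data in ZZ against WT (13690 genes, called at the same threshold), 72.2% of genes changed 2-fold and 93.8% of those changed 4-fold were recovered, and 4.73% of calls were wrong. For 2-fold changes the share was 45.5% in the homozygous and 62.3% in the hemizygous transgene difference and 61.8% in the FOXO1 difference. Wrong calls made up 7.78% in LIRKO against WT of the hemizygous table and 7.87% in Zstar against Z. The genes changed in the simulation all averaged above 1 CPM over the libraries. In ZZ against WT 169 genes were called in the simulation, against 4149 in the data. These shares may therefore differ in the data and for members near 0 reads.

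The members, gene lists and motif were chosen with earlier results of these data known. Values in every mouse (lowest, median and highest in ZZ LIRKO livers) are given at least once for Nfe2l2, Keap1, Nqo1, Gclc, Gclm and Hmox1 and, as these or as group means, in each comparison for up to 6 members with the smallest adjusted p among those passing. The other pathway list gives up to 3 passing genes in each comparison. Mouse 1410, the ZZ LIRKO mice with outlying values, and reads of members near 0 were named after their values were seen.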

Additional observations from a re-analysis of the deposited data

Results flagged for a closer look

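A sample far from the others of its group was found 21 times in 282 combinations of a gene and a group of 4 to 7 mice (7.45%). In a single combination chance gives about 1 in 20. The combinations share mice, and the LIRKO mice enter from both tables, so they are not independent. Whether the share exceeds chance was not tested. All values are log2 CPM. Z mouse 1410 was high for Slc7a11 (1.37, others -2.03 to -1.25), Gsta1 (1.49, others -0.24 to 0.16) and Gstm3 (8.17, others 6.71 to 6.99). LIRKO mouse 1474 was high for Srxn1 in both tables (6.05, others 5.43 to 5.47 in the homozygous table; 6.26, others 5.72 to 5.76 in the hemizygous table) and for Gsr in the hemizygous table (6.83, others 6.48 to 6.54).

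LIRKO mouse 1600 was low for Abcc2 in both tables (9.69, others 10.17 to 10.23 in the homozygous table; 9.74, others 10.38 to 10.50 in the hemizygous table). In the homozygous table it was also low for Osgin1 (8.61, others 9.37 to 9.39) and Gstp1 (8.44, others 8.68 to 8.70), and in the hemizygous table for Tkt (6.95, others 7.39 to 7.48). LIRKO mouse 1483 was low for Akr1b8 (2.43, others 3.06 to 3.16) and LIRKO mouse 1468 for G6pdx (2.40, others 2.72 to 2.75), both in the homozygous table.

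ZZ LIRKO mouse 1876 was low for Keap1 (5.86, others 6.06 to 6.16), Nqo1 (2.94, others 3.85 to 4.37) and Osgin1 (7.13, others 8.42 to 9.23). ZZ LIRKO mouse 1855 was high for Abcc4 (5.50, others 3.98 to 4.62). Z LIRKO F1KO mouse 207 was low for Gsta4 (5.38, others 5.74 to 5.88) and Taldo1 (5.95, others 6.22 to 6.32). Z LIRKO mouse 1450 was low for Akr1b8 (2.40, others 2.71 to 2.75) and Z LIRKO mouse 1427 for Tkt (7.13, others 7.40 to 7.45).

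The effect of insulin receptor loss differed by the presence of the homozygous transgene, by limma's test of the difference itself, for 12 members. The differences in log2 units were -5.74 for Gpx2, -3.99 for Slc7a11, -3.92 for Abcc4, -3.10 for Cbr3, -2.88 for Gstm3, -1.51 for Srxn1, -1.39 for Gstm4, -1.25 for Gstm1, -0.99 for Ephx1, -0.97 for Gsta4, -0.91 for Pgd and -0.69 for Sqstm1. With voom weights Gpx2 (adjusted p = 0.0926) and Slc7a11 (adjusted p = 0.174) did not pass, and without ZZ mouse 1682 or ZZ mouse 1809 (each alone) 6 of the 12 passed. The difference from the PiZ control also differed between the arm with joint insulin receptor and FOXO1 loss and the arm with receptor loss alone. This held for Osgin1 (-2.23), Abcc4 (-2.15), Gstm6 (1.03), Gsta3 (0.94), Gclc (0.81), Aox1 (0.76) and Gsr (0.52). These arms differ in source label as well as FOXO1, which cannot be told apart. No group lacked only FOXO1, so its own effect is not separated from a changed receptor effect.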

How the results depend on the processing

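No call on a member changed direction in any alternative run. No paired analysis was possible because the groups compared within a table share no mouse. The counts of members passing in ZZ against WT (14 to 19 with 1 library left out, 19 in the main analysis) and in ZZ LIRKO against ZZ (22 to 26, with 24) stayed within 1.5 times under every alternative. With 1 library left out, the counts were 9 to 14 for LIRKO against WT in the homozygous and 9 to 13 in the hemizygous table, 6 to 13 for the transgene difference in the homozygous table, 2 to 7 for Z against WT, 6 to 13 for Zstar against WT, 1 to 4 for Zstar against Z, 15 to 17 for Z LIRKO against Z, 7 to 14 for Z LIRKO F1KO against Zstar and 3 to 9 for the FOXO1 difference. The setting without libraries above 0 log2 CPM of Prss2 left 1 WT mouse in each table. All counts above that use WT under this setting rest on that mouse. It also dropped Z mouse 1410, Zstar mouse 249, Z LIRKO mice 1427 and 1428 and Z LIRKO F1KO mice 206 and 207. In the homozygous table it dropped ZZ mouse 1846 as well. Under it the counts were 6 for Zstar against Z and 2 for the FOXO1 difference. With a clock-phase covariate they were 8 for LIRKO against WT in the hemizygous table, 1 for Z against WT and 1 for Zstar against WT. In the fit of the compared groups alone they were 5 for Zstar against WT and 1 for Zstar against Z. The cause of these changes was not tested. Fits that left out libraries had fewer samples, while the clock-phase fit kept all of them. With voom weights the homozygous transgene difference lost Gpx2 (-5.71, adjusted p = 0.0926) and Slc7a11 (-3.95, adjusted p = 0.174), both near 0 reads in LIRKO and WT livers. Depth limits statements on these genes and on Gsta1 in the hemizygous table.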
